A study of Mus musculus with 32 samples.

Results

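Transcripts of 7 genes of the ISG15 and FAT10 conjugation systems were followed in Dnmt1-silenced and control mouse lung endothelial cells (ECs). The genes were chosen by symbol, 7 of the 54429 symbols of the count table, and all 7 were among the 15254 genes that passed the low-count filter. They are Isg15 (ENSMUSG00000035692), Ubd (ENSMUSG00000035186, which encodes FAT10), Uba7 (ENSMUSG00000032596), Uba6 (ENSMUSG00000035898), Ube2l6 (ENSMUSG00000027078), Herc6 (ENSMUSG00000029798) and Usp18 (ENSMUSG00000030107). The list was drawn up with earlier results of these data in view, so the tests below describe these libraries and are no independent support for a change of the family.

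Bulk RNA-seq had been made from the Veravec line, labelled as lung ECs, after transfection with si-control, the control siRNA, or with si-dnmt, which targets the gene of the maintenance DNA methyltransferase Dnmt1. Each siRNA was combined with no cytokine, TNF (TNFα at 10 ng/mL), IFN (IFNγ at 1000 U/mL) or TNF + IFN, the cytokines being given for 16 h. The 8 groups held 4 biological replicates each, 32 libraries in all, and the cells of every group, those without cytokine included, had gone through repeated lipofection with an siRNA. All libraries came from this single line, so the p-values measure the spread between its cultures.

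ISG15 is a ubiquitin-like protein that interferons induce. It is activated by the E1 enzyme UBA7, passed to the E2 enzyme UBE2L6 and attached to proteins by an E3 ligase, which is HERC6 in the mouse, and the protease USP18 removes it again. FAT10, also a ubiquitin-like protein, is induced by IFNγ and TNFα, is activated by the E1 enzyme UBA6, which serves ubiquitin as well, and marks proteins for the proteasome. USP18 is also known as a brake on type I interferon receptor signalling.

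The 250 bases upstream of the annotated start are shown for the 2 modifiers, the proteins that the other 5 genes serve, as RefSeq gives them on GRCm38.p6. Capitals mark matches to GAAANNGAA, a core of interferon-stimulated response elements, in Isg15, and to GGGNNTTCC, a form of the NF-kB site, in Ubd.
Isg15 (chr4:156200819-156201068, minus strand): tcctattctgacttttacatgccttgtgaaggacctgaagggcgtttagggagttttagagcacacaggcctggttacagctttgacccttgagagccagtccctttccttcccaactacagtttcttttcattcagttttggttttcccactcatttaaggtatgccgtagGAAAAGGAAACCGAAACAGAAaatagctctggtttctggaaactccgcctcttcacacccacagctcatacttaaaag
Ubd (chr17:37193642-37193891, plus strand): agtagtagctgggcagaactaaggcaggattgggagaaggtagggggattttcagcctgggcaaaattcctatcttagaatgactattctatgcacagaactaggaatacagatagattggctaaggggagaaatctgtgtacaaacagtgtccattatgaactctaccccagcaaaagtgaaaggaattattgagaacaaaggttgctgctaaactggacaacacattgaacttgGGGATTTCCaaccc
The Isg15 window held 3 overlapping matches between positions -78 and -58, where -1 is the last base before the start, and 7.13% of the 32851 windows of this length held any such match on either strand. In Ubd the match lay at positions -14 to -6, and 4.98% of windows held these letters. The windows of Uba7, Ube2l6 and Herc6 held neither motif, and the STAT-type letters TTCNNNGAA, present in 7.02% of windows, were in none of the 5. CpG sites, the substrate of DNMT1, numbered 0 in the Ubd window, as in 7.87% of all windows, 1 each in Uba7 and Herc6, 4 in Isg15 and 11 in Ube2l6. The promoter table listed 5 of the 7 genes. The motif letters were chosen after the sequences had been seen, and a match is a description of the window, not a bound site.

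Libraries held 17362546 to 33500030 assigned counts (median 20859668). Dnmt1 was 13.5- to 16.9-fold lower in the si-dnmt groups than in the si-control groups with the same cytokine. By ratios of mean CPM it was 7.58- to 10.1-fold lower in replicates 1 and 2 and 23.2- to 35.6-fold lower in replicates 3 and 4. Over the genes as a whole, replicates 1 and 2 stood apart from replicates 3 and 4 in all 8 groups. Several of the 7 genes showed this too, such as Ubd under every cytokine treatment. The labels give no batch, and values are also given within each pair of replicates. Fits of 1 pair alone had 2 libraries per group, so their p-values measure only the spread within that pair. The split into pairs was made with earlier results of these data known. The 12 endothelial markers examined all passed the low-count filter and summed to 2820 to 8829 CPM (counts scaled to a common library total). Cdh5 stood at 846.5 to 2880 CPM, while Vwf (0.863 to 57.4 CPM) and Cldn5 (0.116 to 42.3 CPM) fell lowest. Of 8 leukocyte markers, Ptprc had at most 3 counts in any library and Cd3e none, while Cd68 (49.1 to 214 CPM) and Lyz2 (1.21 to 132.5 CPM) made up most of a sum of 67.6 to 232 CPM. Of 7 epithelial markers, Epcam had at most 3 counts and Sftpc none, while Krt18 stood at 3.65 to 22.6 CPM. Summed pericyte and smooth muscle markers, mostly Acta2, ran from 7.69 to 69.4 CPM in si-control libraries and from 39.3 to 229.9 CPM in si-dnmt libraries, while Rgs5 had at most 1 count and Des and Cspg4 at most 3. This sum was higher in si-dnmt libraries without overlap at rest (39.3 to 183.2 against 7.69 to 26.6 CPM), with TNF (66.3 to 142.6 against 9.52 to 28.7 CPM) and with IFN (84.0 to 229.9 against 20.9 to 69.4 CPM). With both cytokines the ranges overlapped (59.1 to 133.3 against 18.7 to 64.7 CPM). The summed fibroblast markers were lower in si-dnmt than in si-control libraries without overlap at rest (17.6 to 34.5 against 43.4 to 80.6 CPM) and with IFN (10.8 to 17.8 against 22.5 to 38.2 CPM), and the leukocyte sum at rest was as well (140.2 to 187 against 191 to 227 CPM). These sums moved with the siRNA contrasts below, and their part in them was not tested. In bulk RNA, fewer cells of a type and less RNA per cell cannot be told apart.

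Without cytokine, Dnmt1 silencing was accompanied by higher transcript of 4 of the 7 genes, the FAT10 gene Ubd, the ligase Herc6, the E2 Ube2l6 and the protease Usp18, in edgeR's quasi-likelihood test at an adjusted p under 0.05. Of all genes tested, 9.58% were higher in this comparison. All 7 genes had log2 differences above 0 over the 4 replicates, with a median of 0.93 against -0.00 for all genes. Isg15 and Uba7 were below 0 when only replicates 3 and 4 were fitted. At rest the 4 si-dnmt libraries lay above the 4 si-control libraries without overlap for Ubd, Herc6, Ube2l6 and Usp18, and 11.1% of all genes did so. Every level below is in CPM scaled with TMM factors, in the order of replicates 1 to 4.

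Isg15, the modifier itself, stood at 67.2, 33.9, 90.4 and 70.0 CPM in si-control libraries without cytokine and at 111, 125, 64.8 and 88.0 CPM in si-dnmt libraries. The groups overlapped: si-dnmt replicate 3 was lower than 3 of the 4 controls, and si-dnmt replicate 4 lower than si-control replicate 3. The log2 difference was 0.57 ± 0.28 (SE, n = 4 per group, adjusted p = 0.162, edgeR). It was 1.22 within replicates 1 and 2 (n = 2 per group, adjusted p = 3.37e-05) and -0.07 within replicates 3 and 4 (n = 2 per group, adjusted p = 0.736). The difference between the pairs was itself called in edgeR, at -1.28 ± 0.26 (adjusted p = 0.00142).
With TNF, Isg15 was at 231, 199, 127 and 153 CPM in si-control cells, and 285, 253, 185 and 149 CPM under si-dnmt. With IFN, the values were 184, 185, 116 and 116 CPM in si-control cells, and 191, 207, 119.7 and 156 CPM under si-dnmt. With both cytokines they were 423, 479, 239.9 and 248 CPM in si-control cells, and 382, 413, 330.2 and 379.7 CPM under si-dnmt. The siRNA groups overlapped under every cytokine, and under both cytokines the si-control replicates 1 and 2 were the highest of all 32 libraries. The siRNA differences with TNF, IFN and both cytokines were 0.30, 0.16 and 0.12 on the log2 scale, none called in edgeR (adjusted p = 0.495, 0.728 and 0.831). The order of the mean levels ran from si-control (65.4 ± 23.4 CPM, SD, n = 4) over si-dnmt, the IFN groups and the TNF groups to si-dnmt + TNF + IFN (376 ± 34.1 CPM). Each group overlapped the next in that order, although the extremes lay 5.75-fold apart.

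Ubd, the FAT10 gene, was close to silent in resting control cells, at 0.282, 0.212, 0.132 and 0.404 CPM, which were 6, 4, 3 and 9 counts. In resting si-dnmt cells it stood at 4.72, 5.00, 2.49 and 2.50 CPM. All si-dnmt libraries lay above all controls, and in replicates 3 and 4 the si-dnmt level was lower than in replicates 1 and 2. Summed counts were 368 in si-dnmt and 22 in si-control libraries, a depth-adjusted ratio of 13.7 with an exact 95% counting interval of 8.92 to 22.2, which covers counting error only. By mean level Ubd was number 14538 of 15254 genes in resting si-control cells and number 10722 in resting si-dnmt cells.
TNF brought Ubd to 61.8, 67.4, 14.7 and 17.3 CPM in si-control cells, and to 132, 118, 37.8 and 31.3 CPM under si-dnmt. Within each replicate pair the si-dnmt libraries were the higher, but the groups overlapped because the pairs differed in level. The log2 difference was 0.99 ± 0.48 (n = 4 per group, adjusted p = 0.16, edgeR). With the replicate number as a block, it was 1.01 and called (adjusted p = 0.000172), and the pairs gave 0.95 and 1.12.
IFN brought Ubd to 729, 767, 268 and 262 CPM in si-control cells, and to 775, 1029, 425 and 437 CPM under si-dnmt. Both cytokines brought it to 3328, 3113, 1901 and 1889.8 CPM in si-control cells, and to 3268, 3422, 1949.7 and 1922 CPM under si-dnmt. The siRNA groups overlapped in both states. With IFN, the log2 difference was 0.40 ± 0.47 (n = 4 per group, adjusted p = 0.61, edgeR), and 0.48 with the block (adjusted p = 0.0447). With both cytokines it was 0.05 ± 0.47 (adjusted p = 0.966). In the presence of both cytokines Ubd was number 32 of 15254 genes by mean CPM in si-control and number 26 in si-dnmt cells, and its group means spanned 10263-fold.

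**Figure D1:**
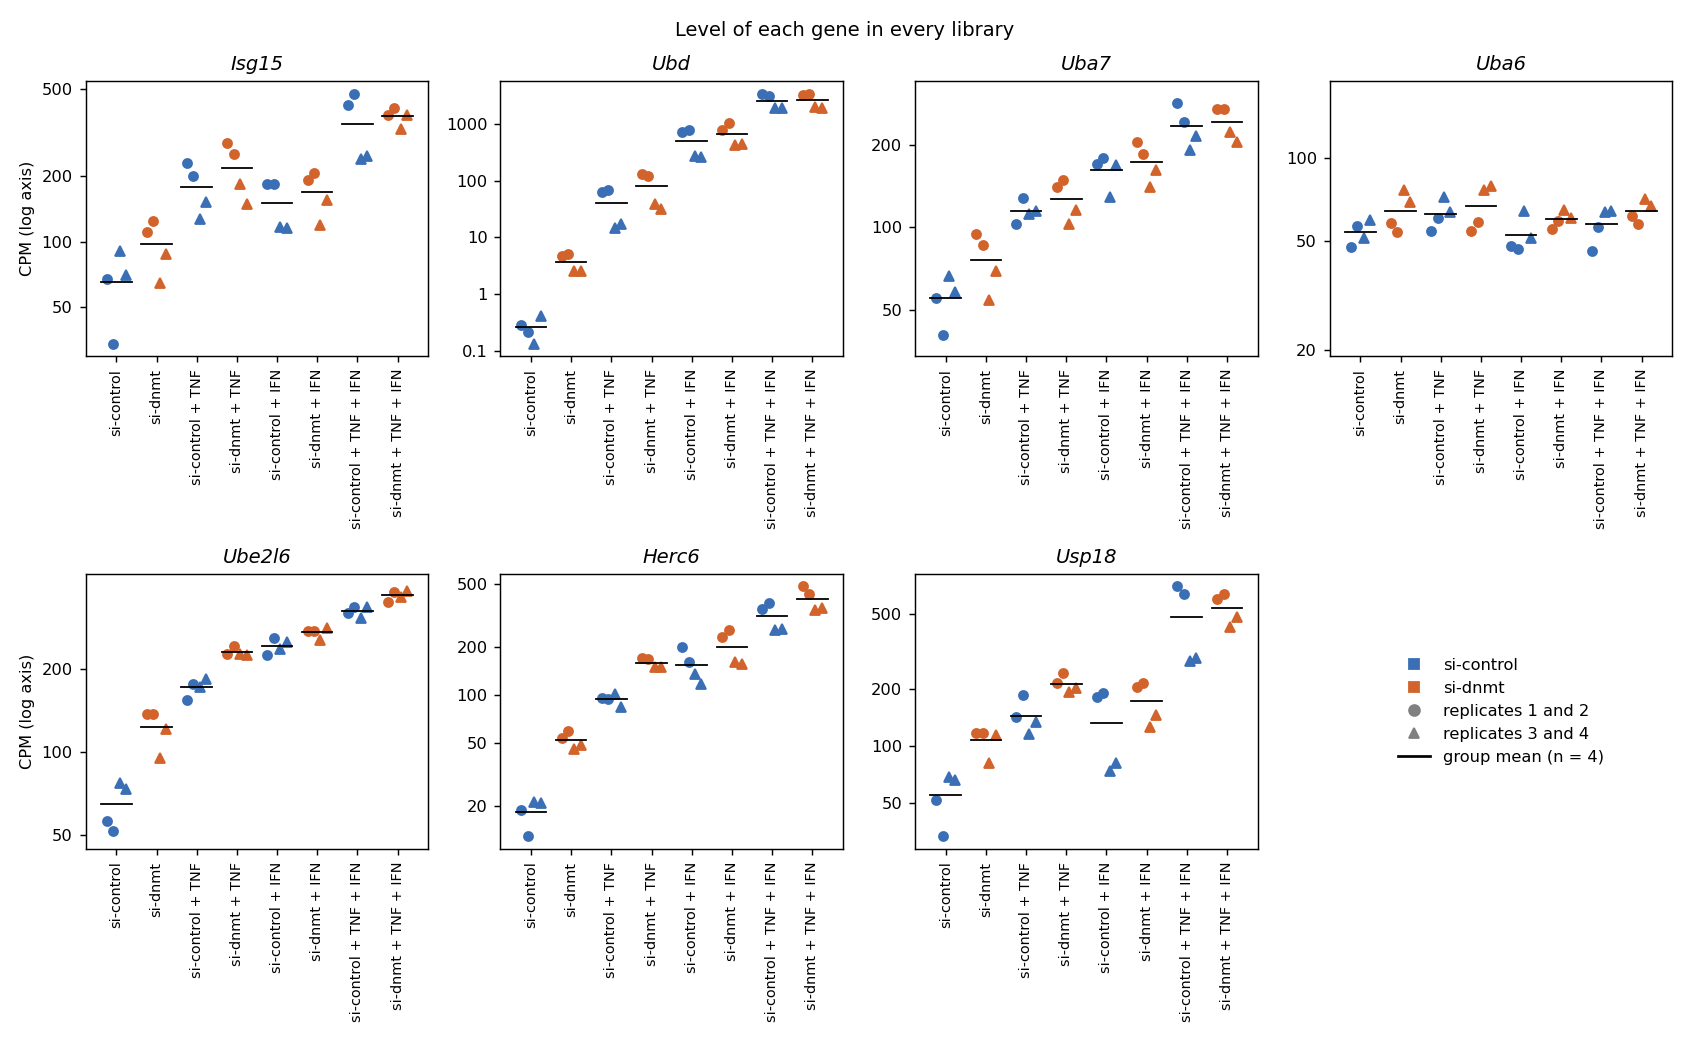
Level of each of the 7 genes in every library, in TMM-scaled CPM on log axes, by siRNA and cytokine group, with replicates 1 and 2 marked apart from replicates 3 and 4 and the group mean drawn. Ubd spans 10263-fold between group means and Uba6 1.28-fold, and si-dnmt lies above si-control without overlap at rest for Ubd, Herc6, Ube2l6 and Usp18.

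Uba7, the E1 enzyme for ISG15, was at 55.6, 40.8, 66.6 and 58.2 CPM in resting si-control cells, and 94.8, 86.6, 54.3 and 69.7 CPM under si-dnmt. Its groups overlapped, with si-dnmt replicate 3 below 3 controls. The log2 difference was 0.46 ± 0.17 (n = 4 per group, adjusted p = 0.053, edgeR). A block on the replicate number gave 0.42 (adjusted p = 0.0184), and leaving out si-control replicate 3 (0.57, adjusted p = 0.0312) or si-dnmt replicate 3 (0.60, adjusted p = 0.016) also brought a call, as did RLE size factors (0.49, adjusted p = 0.0405) and DESeq2 (0.49, adjusted p = 0.0276). Replicates 1 and 2 alone gave 0.92 and replicates 3 and 4 alone -0.01, and this difference between the pairs was called (-0.92 ± 0.19, adjusted p = 0.00192, edgeR).
With TNF, Uba7 was at 103 to 128 CPM in si-control cells, and 103 to 149 CPM under si-dnmt. With IFN it was at 129 to 178 CPM and 141 to 205 CPM. With both cytokines it was at 191 to 284 CPM and 205 to 270.4 CPM. The siRNA groups overlapped in all 3 states, and the log2 differences of 0.15, 0.10 and 0.05 were not called in edgeR (adjusted p = 0.583, 0.727 and 0.875).

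Uba6, the E1 enzyme for FAT10 and ubiquitin, stayed between 45.7 and 79.2 CPM in all 32 libraries. At rest it was at 47.5, 56.4, 51.1 and 59.7 CPM in si-control cells, and 58.0, 53.9, 76.3 and 69.2 CPM under si-dnmt, which overlapped. Its group means ran from 52.5 CPM (si-control + IFN) to 67.2 CPM (si-dnmt + TNF), and every group overlapped the next in that order. The log2 difference at rest was 0.26 ± 0.13 (n = 4 per group, adjusted p = 0.188, edgeR), called with the block (0.25, adjusted p = 0.0227). Under TNF, IFN and both cytokines it was 0.10, 0.19 and 0.16, not called in edgeR (adjusted p = 0.664, 0.346 and 0.46).

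Ube2l6, the E2 enzyme for ISG15, was at 55.9, 51.4, 77.1 and 73.3 CPM in resting si-control cells. In resting si-dnmt cells it was at 137, 137, 94.9 and 121 CPM. The lowest si-dnmt library, replicate 3, still lay above the highest control. The log2 difference was 0.93 ± 0.11 (n = 4 per group, adjusted p = 5.56e-07, edgeR). It was larger within replicates 1 and 2 (1.36) than within replicates 3 and 4 (0.52), a difference of -0.83 ± 0.14 (adjusted p = 0.000156), and was called within each pair.
With TNF, Ube2l6 was at 154, 176, 172 and 183 CPM in si-control cells, and 227, 242, 227 and 224 CPM under si-dnmt, again without overlap. The difference of 0.42 ± 0.11 was called (n = 4 per group, adjusted p = 0.0049, edgeR). IFN brought si-control cells to 225, 259, 235 and 251 CPM and si-dnmt cells to 275, 275, 255 and 281 CPM, where si-dnmt replicate 3 overlapped the controls. Under both cytokines si-control cells had 318, 334, 306 and 336 CPM and si-dnmt cells 349.7, 381, 366 and 383 CPM. The last groups did not overlap, but neither the IFN difference (0.16, adjusted p = 0.306) nor that with both cytokines (0.19, adjusted p = 0.233) was called in edgeR. The 8 groups of Ube2l6 ran from 64.4 ± 12.7 to 369.7 ± 15.3 CPM (SD, n = 4), and neighbours in that order overlapped only between si-dnmt + TNF, si-control + IFN and si-dnmt + IFN.

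Herc6, the ISG15 ligase, was at 18.9, 12.9, 21.2 and 20.9 CPM in resting si-control cells. Resting si-dnmt cells had 53.3, 59.5, 45.8 and 48.7 CPM. No library overlapped, and the log2 difference was 1.49 ± 0.18 (n = 4 per group, adjusted p = 1.24e-06, edgeR). It was 1.83 within replicates 1 and 2 and 1.17 within replicates 3 and 4, both called, and differed between the pairs by -0.65 ± 0.18 (adjusted p = 0.0181).
TNF raised Herc6 to 96.2, 94.7, 102 and 84.8 CPM in si-control cells, and 171, 169, 150.2 and 151 CPM under si-dnmt. These groups did not overlap either, and the difference was 0.77 ± 0.18 (n = 4 per group, adjusted p = 0.0024, edgeR). With IFN, si-control cells had 202, 162, 136 and 117 CPM and si-dnmt cells 231, 255, 161 and 158 CPM, and with both cytokines si-control cells had 350.0, 383, 258 and 262 CPM and si-dnmt cells 485, 435, 342 and 354 CPM. The siRNA groups overlapped in both states. With IFN the higher replicate pair of si-control cells lay above the lower pair of si-dnmt cells, and with both cytokines these pairs overlapped. The differences were 0.39 ± 0.17 with IFN (n = 4 per group, adjusted p = 0.123, edgeR) and 0.37 ± 0.17 with both cytokines (adjusted p = 0.157). Each was called with the replicate block (0.38, adjusted p = 0.0301, and 0.37, adjusted p = 0.0398), and the IFN difference also without si-control + IFN replicate 1 (0.54, adjusted p = 0.0353).

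Usp18, the ISG15 protease, was at 51.6, 33.2, 69.0 and 66.2 CPM in resting si-control cells, and 117, 117, 81.5 and 115 CPM under si-dnmt. The groups did not overlap, although si-dnmt replicate 3 was well below the other 3. The log2 difference of 0.97 ± 0.30 was called (n = 4 per group, adjusted p = 0.0235, edgeR). The call ended without si-control replicate 1 (0.94, adjusted p = 0.06), si-control replicate 2 (0.79, adjusted p = 0.0869), si-dnmt replicate 2 (0.93, adjusted p = 0.05, just above the threshold) or si-dnmt replicate 4 (0.94, adjusted p = 0.0534). It was 1.47 within replicates 1 and 2 and 0.54 within replicates 3 and 4, both called, with a difference of -0.92 ± 0.21 between them (adjusted p = 0.00371).
With TNF, Usp18 was at 143, 188, 116 and 134 CPM in si-control cells, and 216, 244, 194 and 203 CPM under si-dnmt. These did not overlap, yet the difference of 0.56 ± 0.30 was not called over all 32 libraries (adjusted p = 0.203, edgeR), while it was within replicates 1 and 2 (0.47) and within replicates 3 and 4 (0.66). IFN gave 182, 192, 74.1 and 81.7 CPM in si-control cells, and 206, 215, 126 and 146 CPM under si-dnmt, and both cytokines gave 705, 643, 284 and 294 CPM in si-control cells, and 605, 638, 428 and 482 CPM under si-dnmt. Here the replicate pairs of si-control cells stood far apart and the siRNA groups overlapped. The differences were 0.39 ± 0.30 (adjusted p = 0.393) and 0.16 (adjusted p = 0.775).

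Under TNF, 2 of the 7 genes were called higher in si-dnmt cells, Ube2l6 and Herc6, where 10.4% of all genes were. Under TNF, 3 genes had groups without overlap (Ube2l6, Herc6 and Usp18), as had 11.5% of all genes. Under IFN 0 of the 7 were called in edgeR, against 10.8% of all genes, with 1 (Herc6) at an unadjusted p under 0.05 and 0 by DESeq2, and 0 had groups without overlap, against 11.9% of all genes. With both cytokines 0 were called in edgeR, against 8.97% of all genes, again with 1 (Herc6) at an unadjusted p under 0.05 and 0 by DESeq2, and 1 (Ube2l6) had groups without overlap, against 11% of all genes. The median log2 difference of the 7 genes was 0.93 at rest, 0.42 with TNF, 0.19 with IFN and 0.16 with both cytokines, and all 7 values were above 0 in each state. The genes other than Uba6 varied together over the libraries, so the signs are not separate results. Within replicate pairs some values were below 0, such as Isg15 and Uba7 at rest in replicates 3 and 4. With the replicate number as a block, the genes called higher numbered 6, 3, 2 and 1 of 7 in these 4 states, where that fit called 32.4%, 33.4%, 34.5% and 30.8% of all genes in either direction.

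**Figure D2:**
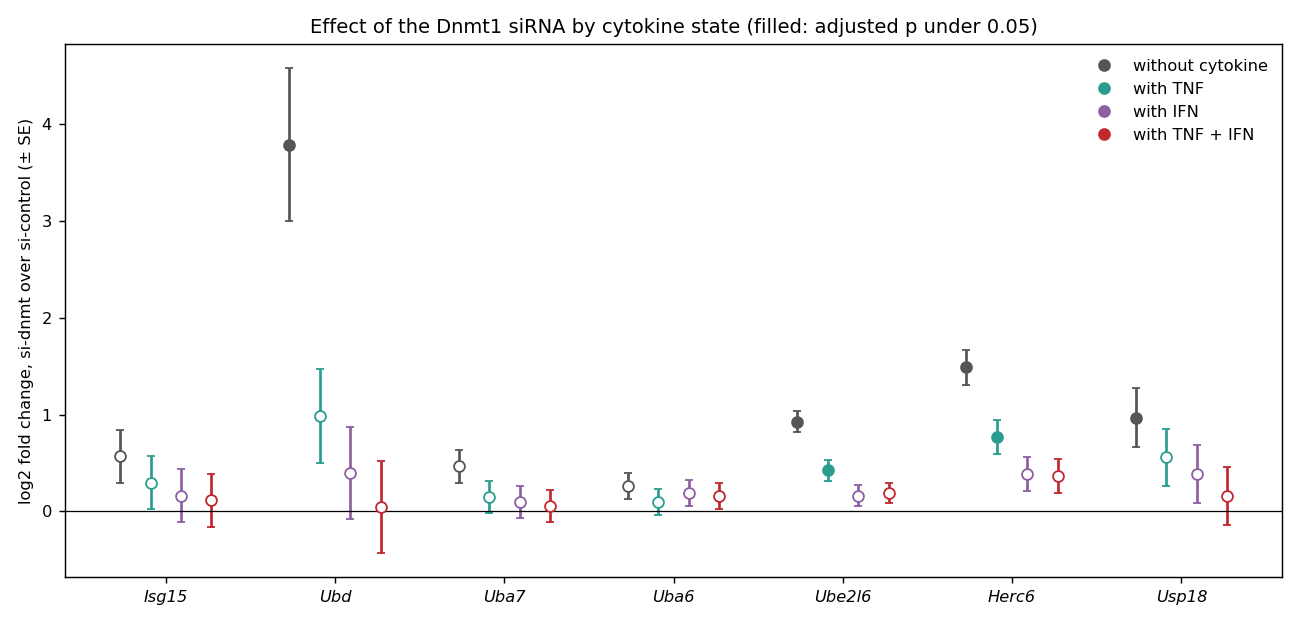
Difference of si-dnmt from si-control for each gene in the 4 cytokine states, as log2 fold change with its standard error from the edgeR fit, with called values filled. The median over the 7 genes is 0.93 without cytokine, 0.42 with TNF, 0.19 with IFN and 0.16 with both cytokines.

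In si-control cells each cytokine raised 6 of the 7 genes, all but Uba6. Among all genes, 16.1% were called higher with TNF, 8.56% with IFN and 23.5% with both cytokines. The 3 responses share the untreated libraries. Ubd moved farthest, by 7.25 ± 0.75 with TNF, 10.91 ± 0.80 with IFN and 13.24 ± 0.84 with both cytokines on the log2 scale. Since its untreated level rested on 22 counts in all, its count ratios are given with their exact 95% counting intervals. They were 156 (103 to 249) with TNF, 1967 (1299 to 3139) with IFN and 10085 (6661 to 16092) with both cytokines.
Herc6 rose by 2.35 ± 0.19 with TNF, 3.06 ± 0.19 with IFN and 4.08 ± 0.20 with both. For the E2 Ube2l6 the log2 responses were 1.41, 1.91 and 2.33, each ± 0.11, and for the E1 Uba7 1.05, 1.54 and 2.07, each ± 0.17. In these 4 genes the IFN response had the larger value of the single cytokines. Isg15 (1.44 ± 0.28 with TNF, 1.20 ± 0.28 with IFN) and Usp18 (1.40 ± 0.30 with TNF, 1.27 ± 0.30 with IFN) had the larger value with TNF. With both cytokines they rose by 2.41 ± 0.29 and 3.13 ± 0.32. TNF was not tested against IFN. For Usp18 the order was the reverse in si-control replicates 1 and 2, at 143 and 188 CPM with TNF against 182 and 192 CPM with IFN. In replicates 3 and 4 it was at 116 and 134 CPM with TNF against 74.1 and 81.7 CPM with IFN. The Usp18 response to IFN was called over all libraries (adjusted p = 0.0039, edgeR), was 2.16 within replicates 1 and 2, and was 0.20 and not called within replicates 3 and 4 (adjusted p = 0.268). For Uba6 the TNF difference was 0.22 (adjusted p = 0.22), called with the replicate block (0.22, adjusted p = 0.0386).

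In si-dnmt cells 6 of the 7 genes rose with TNF, 4 with IFN and 6 with both cytokines, against 11.5%, 6.66% and 21.3% of all genes. Ubd rose by 4.45 ± 0.57, 7.51 ± 0.64 and 9.50 ± 0.69 in these states. The values for Herc6 were 1.63, 1.96 and 2.96, for Ube2l6 0.91, 1.15 and 1.59, and for Uba7 0.73, 1.18 and 1.66, all called. Isg15 rose with TNF (1.17) and with both (1.95), while its IFN value of 0.79 ± 0.28 was not called (adjusted p = 0.0732, edgeR). It was called with the replicate block (0.80, adjusted p = 0.00789) and without si-dnmt + IFN replicate 3 (0.93, adjusted p = 0.0441).
Usp18 rose with both cytokines in si-dnmt cells (2.32). Its TNF response of 0.99 ± 0.30 was called (adjusted p = 0.0185, edgeR), but not without si-dnmt replicate 3 (0.88, adjusted p = 0.0608) or si-dnmt + TNF replicate 2 (0.92, adjusted p = 0.0502). The IFN response of Usp18 was 0.69 ± 0.30 (adjusted p = 0.182), called with the replicate block (0.66, adjusted p = 0.0464).

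**Figure D3:**
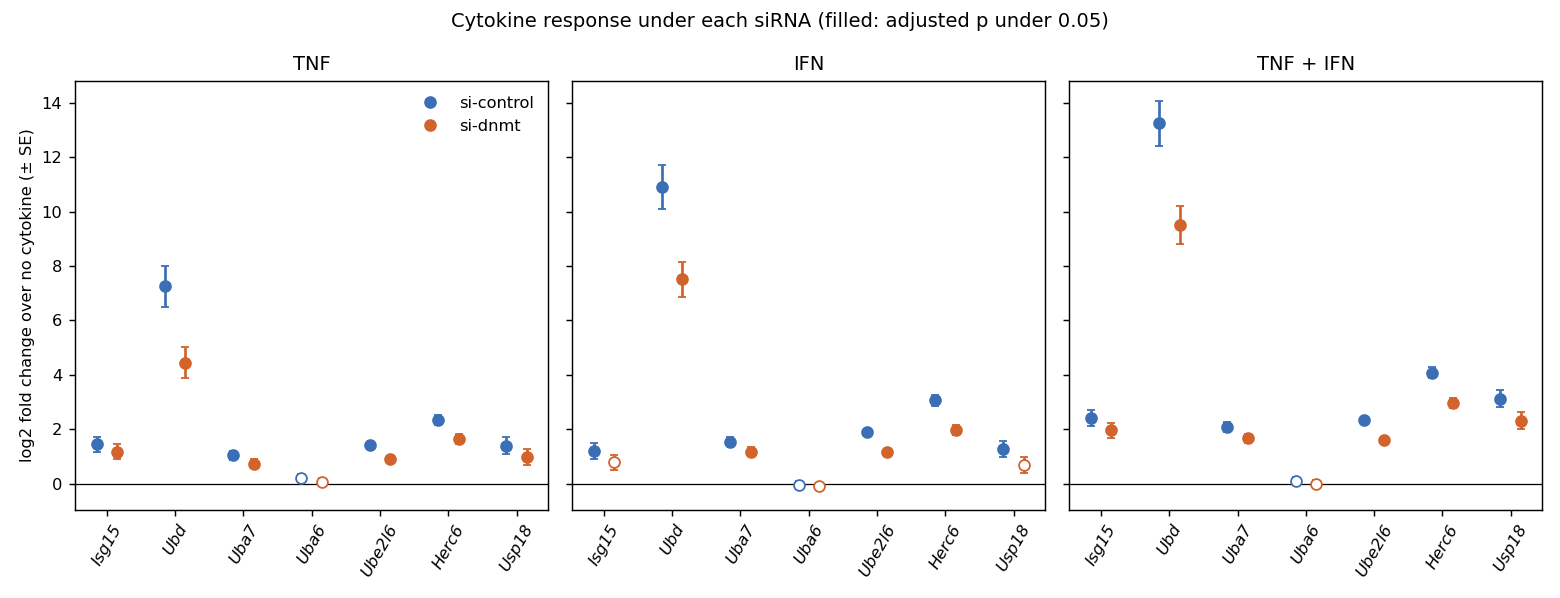
Log2 response of each gene to TNF, IFN and TNF + IFN in si-control and si-dnmt cells, with standard errors from the edgeR fit and called values filled. Ubd reaches 13.24 in si-control and 9.50 in si-dnmt cells with both cytokines, and Uba6 stays near 0.

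Whether a cytokine response differed between the siRNAs was tested as an interaction, that is the response in si-dnmt cells minus that in si-control cells on the log2 scale. All 7 genes had values below 0 for each of the 3 cytokine treatments, which share the resting libraries with one another and with the resting siRNA comparison. Ube2l6 had a smaller IFN response in si-dnmt cells (-0.76 ± 0.15, adjusted p = 0.0492, edgeR), the only one of the 7 genes called, and 0.0459% of all genes were called lower there. This call rested on most of the libraries: it ended when any 1 of 12 of the 16 was left out, all but si-control replicates 3 and 4, si-control + IFN replicate 3 and si-dnmt replicate 3, and in those 12 fits the values ranged from -0.81 to -0.67. It also ended without the low-count filter (-0.77, adjusted p = 0.0744) and with only the 4 groups compared in the fit (-0.77, adjusted p = 0.476). As ratios of mean CPM, si-dnmt over si-control, Ube2l6 stood at 2.55 at rest and 1.14 with IFN in replicates 1 and 2. In replicates 3 and 4 these ratios lay closer together, at 1.44 and 1.10. Herc6 (-1.10, adjusted p = 0.099) and Ubd (-3.39, adjusted p = 0.47) were not called for IFN, but with the replicate block both were (-1.08, adjusted p = 0.00488, and -3.31, adjusted p = 0.000213), as they were by DESeq2 (-1.12, adjusted p = 0.0101, and -3.46, adjusted p = 0.00253).
With both cytokines Ube2l6 (-0.73 ± 0.15, adjusted p = 0.019, edgeR) and Herc6 (-1.12 ± 0.25, adjusted p = 0.0302) responded less in si-dnmt cells, 2 of the 7 genes, where 0.374% of all genes were called lower. The Ube2l6 call ended without si-control replicate 1 (-0.67, adjusted p = 0.0507). The Herc6 call ended without si-control replicate 1 (-1.13, adjusted p = 0.0575) or 2 (-0.99, adjusted p = 0.063), si-control + TNF + IFN replicate 1 (-1.07, adjusted p = 0.0623) or 2 (-1.01, adjusted p = 0.0681), si-dnmt replicate 2 (-1.05, adjusted p = 0.0667), or si-dnmt + TNF + IFN replicate 3 (-1.05, adjusted p = 0.0802) or 4 (-1.06, adjusted p = 0.0823). Ubd gave -3.74 ± 0.94 (adjusted p = 0.0651), called with the block (-3.75, adjusted p = 1.37e-05), without the low-count filter (-3.77, adjusted p = 0.0382), with only the 4 groups compared (-3.74, adjusted p = 0.0147) and by DESeq2 (-3.79, adjusted p = 0.000154), and Usp18, Isg15 and Uba7 gave -0.81, -0.45 and -0.41, none called. Within replicates 1 and 2 alone these 3 were called at -1.59, -1.41 and -0.88 (adjusted p = 1.97e-05, 0.00113 and 0.00328), and within replicates 3 and 4 alone Isg15 was called with the opposite sign (0.61, adjusted p = 0.0489), while Usp18 (0.12) and Uba7 (0.084) were not. With only the 4 groups compared in the fit, neither Ube2l6 (-0.73, adjusted p = 0.114) nor Herc6 (-1.12, adjusted p = 0.0655) was called. As ratios of mean CPM in replicates 1 and 2, Ube2l6 stood at 2.55 at rest and 1.12 with both cytokines, and Herc6 at 3.55 and 1.26. In replicates 3 and 4 the ratios were 1.44 and 1.17 for Ube2l6, and 2.25 and 1.34 for Herc6.
For TNF, 0 of the 7 genes were called in edgeR, with 0.0262% of all genes called lower, while 3 had an unadjusted p under 0.05 and 1 was called by DESeq2. Those 3 were Ube2l6 (-0.50), Herc6 (-0.72) and Ubd (-2.80), and Ubd was called with the replicate block (-2.78, adjusted p = 0.00553) and by DESeq2 (-2.87, adjusted p = 0.037).

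The combined response was compared with the sum of the single log2 responses. In si-control cells it fell short of that sum for Ube2l6 (-0.99 ± 0.15, adjusted p = 0.00024, edgeR), Herc6 (-1.33 ± 0.25, adjusted p = 0.00332) and Ubd (-4.92 ± 0.91, adjusted p = 0.0027), 3 of the 7 genes, where 0.642% of all genes were called lower. For Usp18 the value lay on the other side of 0, at 0.46 (adjusted p = 0.846). The comparison is on the log2 scale, and the Ubd value rests on 22 counts in all at rest. In si-control cells the mean levels with both cytokines exceeded those with TNF or IFN alone. They were 324 CPM against 171 and 243 for Ube2l6, 313 against 94.4 and 154 for Herc6, and 2558 against 40.3 and 507 for Ubd. In si-dnmt cells 0 of the 7 genes were called in edgeR, against 0.354% of all genes in either direction, with 3 at an unadjusted p under 0.05 and 1 called by DESeq2. Ube2l6, Herc6 and Ubd then gave -0.46, -0.63 and -2.46 (adjusted p = 0.338, 0.563 and 0.196), and Ubd was called with the replicate block (-2.24, adjusted p = 1.48e-05) and by DESeq2 (-2.43, adjusted p = 0.0426).

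Because the replicate pairs stood apart, the siRNA effect in replicates 3 and 4 was set against that in replicates 1 and 2. Without cytokine it was smaller in replicates 3 and 4 for 5 of the 7 genes, Isg15, Uba7, Ube2l6, Herc6 and Usp18, and 5.28% of all genes were called in that direction. As ratios of mean CPM, si-dnmt over si-control, Isg15 stood at 2.33 in replicates 1 and 2 and at 0.953 in replicates 3 and 4, Usp18 at 2.76 and 1.45, and Herc6 at 3.55 and 2.25. Ubd had ratios of 19.7 and 9.32, and its difference between the pairs was not called (-1.06, adjusted p = 0.393, edgeR).
With both cytokines the order was turned for Usp18, with ratios of 0.922 and 1.57 and a difference of 0.77 ± 0.20 (adjusted p = 0.0114), 1 of the 7 genes, where 3% of all genes were called higher. Isg15 had ratios of 0.882 and 1.46, not called (0.72, adjusted p = 0.0668). With TNF 0 of the 7 were called (5.96% of all genes in either direction, 0 of the 7 at an unadjusted p under 0.05 and 0 by DESeq2). With IFN 0 were called in edgeR (5.28% of all genes in either direction), with 2 at an unadjusted p under 0.05 and 2 by DESeq2.

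**Figure D4:**
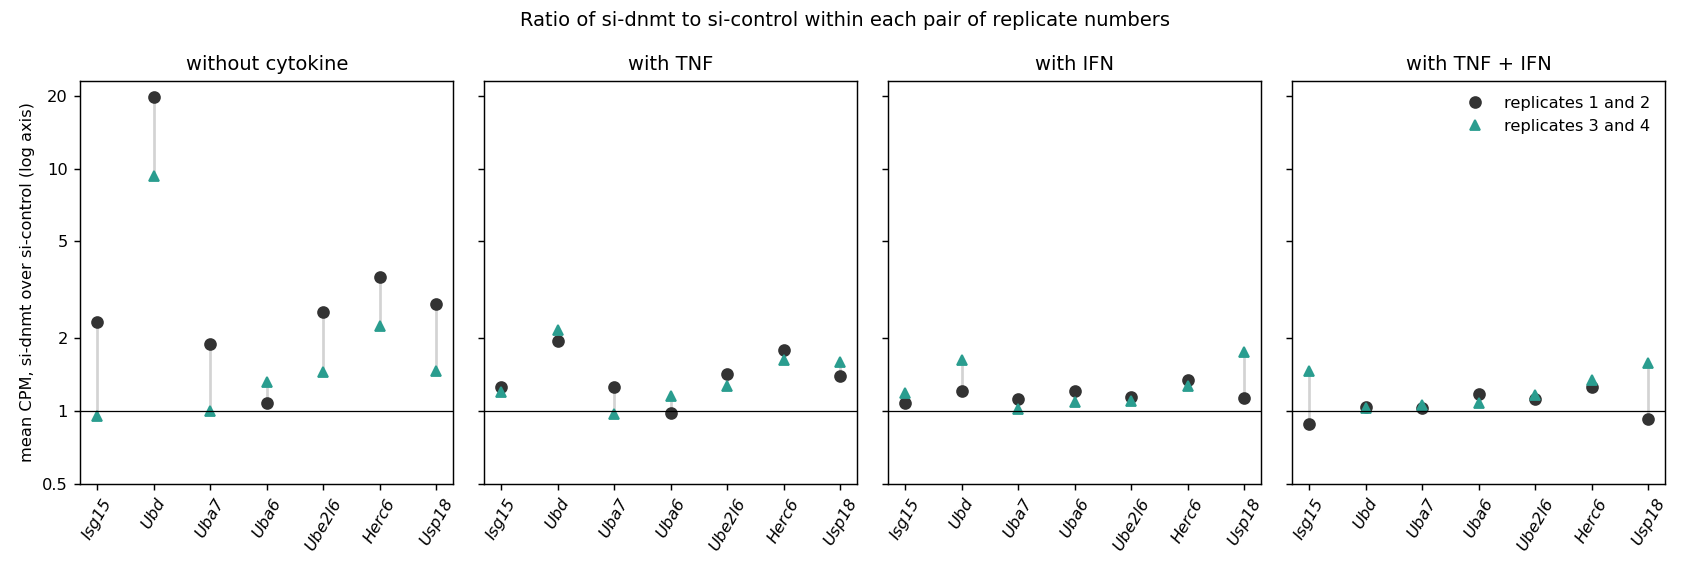
Ratio of mean CPM, si-dnmt over si-control, on a log axis for each gene and cytokine state, drawn separately for replicates 1 and 2 and for replicates 3 and 4. At rest the ratio of Isg15 is 2.33 in the former and 0.953 in the latter, and with both cytokines the ratio of Usp18 is 0.922 and 1.57.

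Levels of different genes were compared per length, as CPM per kilobase of annotated exon. In resting si-control cells Isg15 led, at 86.5 CPM per kb, ahead of Ube2l6 (32.3), Usp18 (19.7), Uba7 (8.26), Uba6 (6.58), Herc6 (1.99) and Ubd (0.276). Isg15 also led in resting si-dnmt cells and in both groups given TNF alone. In every group given IFN the FAT10 gene led instead, with mean levels of 544 CPM per kb for Ubd against 199 for Isg15 in si-control + IFN cells, and 2747 against 459 in si-control + TNF + IFN cells. In si-dnmt cells given both cytokines the levels per kb were 2836 for Ubd, 497 for Isg15, 193 for Usp18, 185 for Ube2l6, 43.5 for Herc6, 36.1 for Uba7 and 7.88 for Uba6. Uba6 kept to 6.43 to 8.23 CPM per kb over the 8 groups, while Uba7, its counterpart for ISG15, ran from 8.26 to 36.1 CPM per kb.

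**Figure D5:**
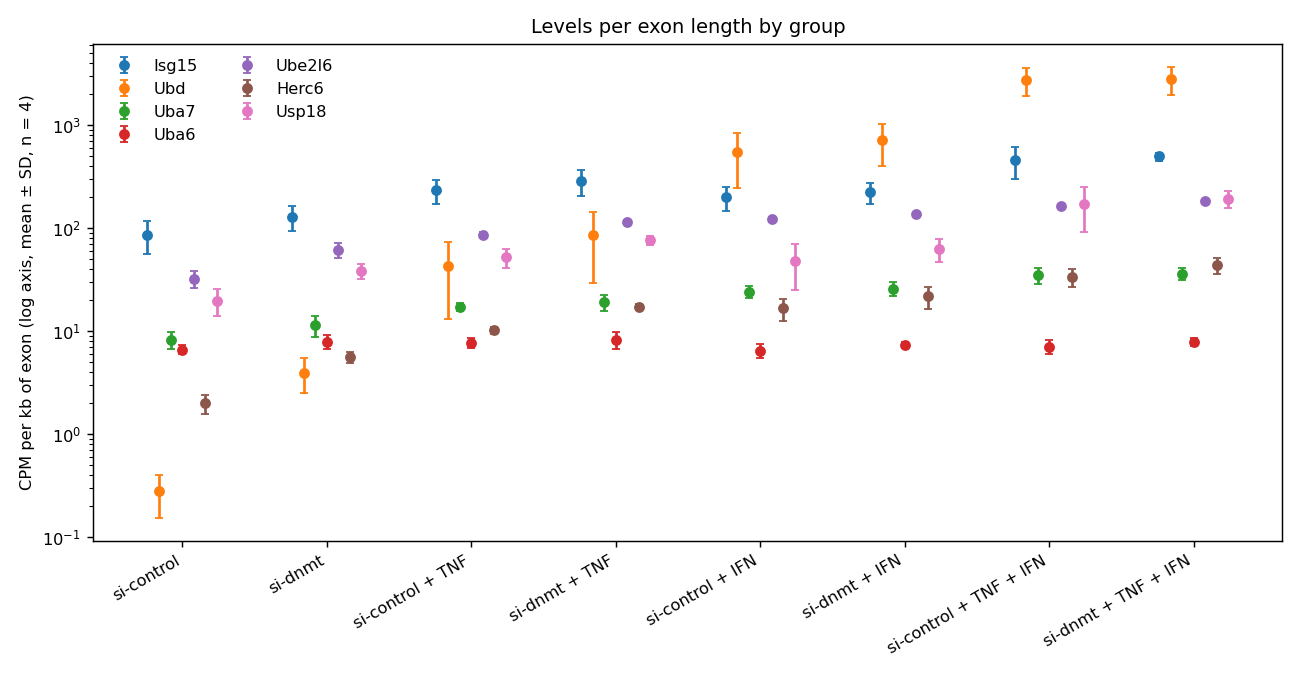
Mean level of each gene in the 8 groups, in CPM per kilobase of exon on a log axis, with the SD over 4 libraries as bars. Isg15 leads the 7 genes in the groups without IFN, and Ubd leads in the groups given IFN alone or with TNF, reaching 2836 CPM per kb.

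Across the 32 libraries the 6 genes other than Uba6 varied together, with Pearson correlations of log2 CPM between 0.831 and 0.979, whereas Uba6 had correlations of -0.11 to 0.124 with them. The libraries share the 8 groups, so these values describe the common cytokine pattern and carry no test. The tested genes most like each member were Hap1 (0.975), Ifi35 (0.973) and Dhx58 (0.971) for Isg15, and Tap2 (0.991), Dtx3l (0.986) and Gbp3 (0.985) for Ubd. Uba7 was nearest to Parp10 (0.985), C1rb (0.979) and Fbxw17 (0.978), and Ube2l6 to Herc6 (0.979), Parp11 (0.976) and Trafd1 (0.975). For Herc6 they were Parp11 (0.992), Phf11b (0.986) and Parp12 (0.982), and for Usp18 Tor3a (0.984), Cmpk2 (0.982) and Ifi203-ps (0.978). Uba6 had looser neighbours, Cct6a (0.892), Zfp91 (0.889) and Dync1i2 (0.888).

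Of 24 tested genes among 25 listed partners of ISG15 and FAT10, 1 was higher and 1 lower in resting si-dnmt cells, against 18.5% of all genes called in either direction (20% with TNF, 20.3% with IFN and 17.7% with both cytokines). The higher one was Stat2, which recruits USP18 to the type I interferon receptor (0.72 ± 0.15, adjusted p = 0.0014, edgeR), and the lower one the proteasome subunit gene Psmd4 (-0.19, adjusted p = 0.0454). In the other states the counts higher and lower were 1 and 0 with TNF, 3 and 0 with IFN and 3 and 2 with both cytokines. Itgal, an integrin chain that binds extracellular ISG15, was called in these 3 states (2.86, 2.56 and 2.32), on summed counts of only 9 against 65, 9 against 71 and 40 against 187. The E2 gene Ube2e1 (0.29) and the deacetylase gene Hdac6 (0.28) were higher with IFN, and the protease gene Usp2 was higher with both cytokines (0.86, adjusted p = 0.00948).
Ube2z, the E2 enzyme for FAT10, had differences of -0.22, -0.26, -0.18 and -0.31 at rest, with TNF, with IFN and with both cytokines, of which the last was called (adjusted p = 0.0229). The FAT10 partner gene Nub1 (0.02, -0.08, -0.26 and -0.27), the E3 gene Trim25 (0.25, 0.24, 0.12 and 0.28) and the ubiquitin E2 gene Ube2l3 (-0.07, -0.07, -0.04 and 0.05) had small values in the same order. Arih1, an E3 partner of UBE2L3, had values of -0.02, 0.12, 0.02 and 0.26, the last of them called (adjusted p = 0.0389).
Of 4 other HERC ligase genes 0 were called in edgeR in any of the 4 states, with 1, 1, 2 and 2 at an unadjusted p under 0.05 at rest, with TNF, with IFN and with both cytokines. Of all genes, 18.5%, 20%, 20.3% and 17.7% were called in either direction in these states, which are also the shares for the next lists. Among 18 genes of other ubiquitin-like modifiers the counts higher and lower were 0 and 2 at rest, 1 and 0 with TNF, 1 and 5 with IFN and 1 and 1 with both cytokines, led by the autophagy genes Map1lc3a (0.97 with both) and Map1lc3b (-0.88 at rest). Of 15 related E2 genes 2 were higher at rest, 1 with TNF, 2 with IFN and 0 with both, and 1 was lower with IFN. The largest called changes of that list were those of the mitotic E2 gene Ube2c (-0.79 with IFN) and of Ufc1, the E2 for UFM1 (0.43 with TNF).
Of 15 interferon-linked transcription factor genes, 9 were higher in resting si-dnmt cells, 3 with TNF, 4 with IFN and 1 with both cytokines, and 0 were lower in any state. Of all genes, 9.58%, 10.4%, 10.8% and 8.97% were called higher in these 4 states. At rest Batf2 (2.08) and Irf7 (1.45) had the largest values of that list. Of 26 interferon and receptor genes 6 were expressed enough to be tested, and only the IFNγ receptor gene Ifngr1 was called, lower with TNF (-0.46, adjusted p = 0.00304). Ifnb1, the IFNβ gene, had at most 86 counts in a library and means of 2.31 CPM (si-control) and 1.97 CPM (si-dnmt) in cells given both cytokines, and no other interferon gene of the list exceeded 4 counts in any library.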

How the data were processed

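RNA-seq libraries of the 8 groups were grouped by their labels. Per the labels, the authors trimmed reads with cutadapt 4.9, checked them with FastQC 0.12.1 and MultiQC 1.27.1 and counted them per gene with featureCounts. The deposited values are raw counts per gene. DESeq2 is named among the authors' tools, and the sources used here do not name the aligner, the genome build or the strand setting. Strand cannot tell apart the reads of overlapping same-strand models, and Uba7 and Herc6 shared 3.48% and 13.7% of their exon bases with such models (Gm20661, Gm45193). Usp18 shared 4.44% of its exon bases with an antisense gene (Gm44148), whose reads cannot be told apart if strand was not used.

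From the counts, genes were filtered with filterByExpr (minimum count 10), scaled with TMM factors (0.880 to 1.09) and tested with edgeR 4.0.16 in R 4.3.3 (quasi-likelihood F test, two-sided, 8 group means over 32 libraries). Benjamini-Hochberg adjusted p-values covered all 15254 genes, with calls made below 0.05. Interactions and contrasts between replicate pairs were fitted in the same way, the latter on 16 means. Standard errors were the log2 fold change over the square root of F. Counting intervals for Ubd were exact Poisson intervals. CPM per kilobase used GENCODE M21 exon unions, promoters came from RefSeq, and motifs were searched on both strands. The code was tested on simulated counts.

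Totals were 17362546 to 33500030 counts per library, and counting error was largest for Ubd in resting si-control cells. The lowest chi-square per degree of freedom between replicates was 3.63, so none looked like a library deposited in duplicate. In every group this value was lower within replicates 1 and 2 and within replicates 3 and 4 than between these pairs. In si-control it was 30.9 and 8.89 within them, and 67.2 to 104.5 between them. Same-numbered libraries deviated together from their group means (112 pairs, r = 0.297 to 0.617, median 0.415, all above 0.1), and the replicate number was therefore also fitted as a block. In 70 of the 112 the same number was also the best match among the 4 replicates of the other group. Libraries from the same side of the split between replicates 1 and 2 and 3 and 4 would deviate together too. Whether the number adds to that split was not tested. The labels call the numbers biological replicates and do not say what same-numbered libraries share.

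The 7 members and all lists were chosen with earlier results of these data known. Named genes were the members, the called partner genes with the largest change in each siRNA contrast (up to 3), the 2 called genes with the largest change in each other list, 5 partners in any case, the 3 genes most correlated with each member, and Dnmt1. The result of 1 list, the other E1 genes, is not reported here. Alternatives were no filter, RLE size factors, DESeq2 1.42.0, the block, each replicate pair alone, only the groups compared, and each library left out.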

Additional observations from a re-analysis of the deposited data

Results flagged for a closer look

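Usp18 in si-dnmt replicate 3 (81.5 CPM, against 115, 117 and 117 CPM in the other 3 libraries of its group) lay apart from its replicates by Dixon's test at the 95% level. It was the only such library among 56 combinations of gene and group tested, where chance alone gives about 1 in 20.

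The siRNAs differed in a cytokine response, by the interaction test in edgeR, for Ube2l6 with IFN (-0.76) and with both cytokines (-0.73) and for Herc6 with both cytokines (-1.12), each smaller in si-dnmt cells. With 1 library left out, these calls held in 4, 15 and 9 of 16 fits, in the same order. None of them held with only the groups compared in the fit. In si-control cells the TNF effect differed with and without IFN for Ube2l6 (-0.99), Herc6 (-1.33) and Ubd (-4.92).

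The siRNA effect differed between replicates 3 and 4 and replicates 1 and 2. Without cytokine it was smaller in replicates 3 and 4 for Isg15 (-1.28), Uba7 (-0.92), Ube2l6 (-0.83), Herc6 (-0.65) and Usp18 (-0.92), and with both cytokines it was larger there for Usp18 (0.77).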

How the results depend on the processing

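Of 1507 values of single genes under other settings, 1379 kept their direction and their side of the threshold, 34 lost a call, 73 gained one and 21 changed sign. The cause of the changes was not tested.

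Replicate pairs changed most. In replicates 3 and 4 alone the siRNA difference at rest was -0.072 for Isg15 and -0.012 for Uba7, and with TNF -0.052 for Uba7. In replicates 1 and 2 alone it was -0.026 for Uba6 with TNF, and with both cytokines -0.19 for Isg15 and -0.12 for Usp18. Interactions of siRNA with both cytokines turned positive in replicates 3 and 4 for Isg15 (0.61), Uba7 (0.084) and Usp18 (0.12), and that of TNF with IFN in si-control turned to -0.13 for Usp18 in replicates 1 and 2. With 1 library left out, the siRNA differences with both cytokines ranged from -0.022 to 0.31 for Isg15, -0.027 to 0.16 for Uba7, -0.020 to 0.40 for Usp18 and -0.10 to 0.19 for Ubd.

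With the replicate block (paired by replicate number), the called genes of the 7 numbered 2 for the siRNA contrast with IFN (34.5% of all genes called in either direction), 1 with both cytokines (30.8%), 1 for siRNA by TNF (0.892%), 3 for siRNA by IFN (0.387%) and 1 for TNF by IFN in si-dnmt cells (1.82%). Beyond the calls given in the Results it changed no other call of these genes in the comparisons between groups. Over all genes the siRNA contrasts called 2816, 3050, 3103 and 2699 at rest, with TNF, with IFN and with both, against 4941, 5097, 5258 and 4694 with the block and 5543, 5521, 5853 and 5497 in replicates 3 and 4 alone. For the 7 genes, replicates 1 and 2 alone, and 3 and 4 alone, gave 4 and 4 for the siRNA contrast with TNF (26.1% and 36.4% of all genes in either direction, as in the shares that follow) and 1 and 3 with IFN (25.2% and 38.5%), and replicates 3 and 4 gave 3 with both cytokines (36.2%). For siRNA by TNF they gave 4 and 2 (1.97% and 8.04%), for siRNA by IFN 6 and 2 (1.8% and 1.01%), and for TNF by IFN in si-dnmt cells 2 and 4 (4.8% and 2.09%). Replicates 1 and 2 gave 6 for siRNA by both cytokines (4.86%) and 5 for TNF by IFN in si-control cells (10.6%). DESeq2 gave 1 for siRNA by TNF (0.288%), 3 for siRNA by IFN (0.21%), 1 for TNF by IFN in si-dnmt cells (0.629%), and 2 for the contrast between replicate pairs with IFN (5.7%). Without a filter siRNA by IFN gave 0 (0.0358%) and the pair contrasts with IFN and with both cytokines gave 2 and 2 (2.41% and 4.34%). With only the groups compared, siRNA by IFN gave 0 (0.0274%) and siRNA by both cytokines 1 (0.279%). Leaving out 1 library gave 0 to 1 for the siRNA contrast with IFN and for siRNA by IFN, and 0 to 2 for siRNA by both cytokines. Low counts limited Ubd in resting si-control cells, where 22 counts in all were observed.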
